A study of Mus musculus with 12 samples.

Results

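Hippocampal RNA of App NL-F/NL-F knock-in mice on an HFD (App HFD, 3 mice) was compared with that of wild-type mice on an RD (WT RD, 3 mice), which are 6 of the 12 arrays of the series and the pair of groups in which both genotype and diet differ. The members were chosen by their labels, genotype and diet, and all 41345 transcript clusters of the array were read in them. A transcript cluster is the set of probes that stands for a gene or transcript, and its value is a log2 expression level, so that a difference of 1 is a doubling. The other 6 arrays, 3 of knock-in mice on the RD (App RD) and 3 of wild-type mice on the HFD (WT HFD), were used for the spread of the fit and to set the single changes of genotype or diet beside the joint one. All mice were male and 18 months old, and had been on the high fat diet (HFD, labelled diabetic) or the control diet (RD, labelled non-diabetic) for 12 months from an age of 6 months. In the knock-in line the Swedish and Iberian mutations and a humanized Aβ sequence sit in the mouse's own *App* gene, under its own promoter. The mutated form is therefore made in the cells that use *App*. The mice were perfused with saline before the whole hippocampus was frozen, and each array holds total RNA of 1 mouse. Both factors change at once here, and their parts in a difference cannot be told apart from these 2 groups alone.

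Microglia are the phagocytes of the brain. Around amyloid plaques they take on a known program, in which they lose some surveillance genes and switch on lysosomal proteases, lipid-sensing receptors such as *Trem2* and the protease inhibitor cystatin F. The C1q proteins that start the classical complement cascade come from microglia, while complement C4 and the filament protein GFAP are made by astrocytes, which also react to plaques. The brain makes its own cholesterol, since the lipoproteins of blood do not cross its barrier, and the enzymes of that route are controlled together by SREBP2, which is held back in the cell when sterols are plentiful.

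No transcript cluster passed an adjusted p of 0.05 (limma, Benjamini-Hochberg over 41345 clusters, 0.0%). The lowest adjusted p was 0.0558, of a cluster with no gene symbol. At an unadjusted p of 0.05, 2144 clusters passed (5.19%), with 1046 higher (2.53%) and 1098 lower (2.66%) in App HFD mice than in WT RD mice. Of the 22180 genes with a symbol, 474 were higher (2.14%) and 482 were lower (2.17%). The 5.19% is close to the share that an unadjusted p of 0.05 lets through where nothing differs, and no single gene below carries a call after adjustment. In what follows "rose" and "fell" refer to the unadjusted p alone. Counts and shares of list members are to be read beside these 2.14% and 2.17% of all named genes. Among the 9858 clusters that averaged an intensity of at least 100 (a log2 value of 6.64), the split was uneven, with 236 higher (2.39%) and 100 lower (1.01%). Fitted alone, the same 9858 clusters gave 432 higher and 226 lower, with the pooled spread of the fit then taken from them alone. The 3 App HFD arrays all lay above the 3 WT RD arrays in 5.22% of the named genes and all below them in 5.64%. The 12 arrays were alike, with Pearson correlations between 0.982 and 0.988 over the clusters (which are no replicates) and medians from 4.78 to 4.84. With 3 mice a group precision is low, set by the number of arrays, and in RNA of a whole hippocampus fewer cells of a type and less RNA per cell cannot be told apart.

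**Figure D1:**
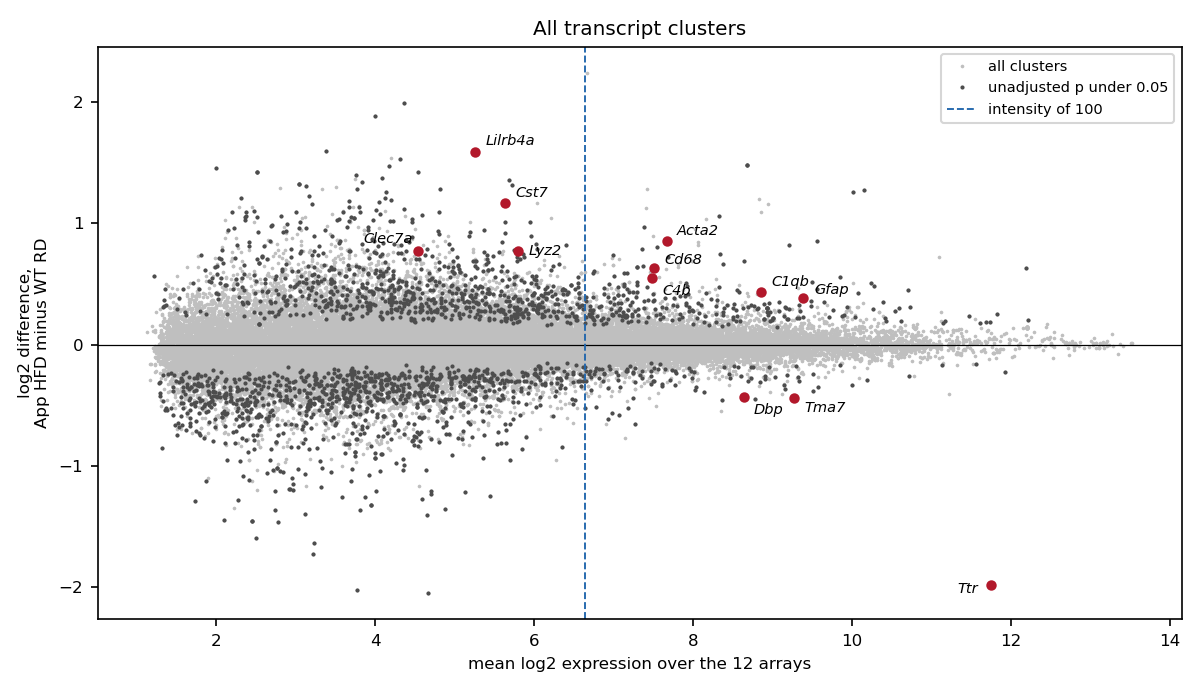
The log2 difference, App HFD minus WT RD, of each of the 41345 transcript clusters (vertical axis) is plotted against its mean log2 expression over the 12 arrays (horizontal axis), with the clusters at an unadjusted p under 0.05 in dark grey, 12 named genes in red and the intensity of 100 as a dashed line. The differences spread widest among dim clusters. *Lilrb4a* and *Cst7* lie left of the line, *Cd68*, *C1qb* and *Gfap* to its right and above 0, and *Ttr* is far below 0 but does not pass the threshold.

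The named genes with the lowest adjusted p belong to plaque-associated microglia. *Cst7*, which encodes cystatin F, an inhibitor of lysosomal cysteine proteases, had log2 levels of 5.94, 6.27 and 6.47 in App HFD mice and 5.01, 5.10 and 5.06 in WT RD mice. The groups were far apart, and the spread lay in the App HFD mice. The log2 difference was 1.17 (standard error 0.13, 2.25-fold, adjusted p = 0.0569). *Lyz2*, the lysozyme of myeloid cells, had 6.12, 6.03 and 5.97 in App HFD mice and 5.12, 5.32 and 5.35 in WT RD mice, a difference of 0.78 (standard error 0.09, 1.71-fold, adjusted p = 0.0569). *Lilrb4a*, an inhibitory receptor of myeloid cells, had 6.29, 5.78 and 6.20 in App HFD mice and 4.18, 4.89 and 4.43 in WT RD mice. Its difference of 1.59 (standard error 0.23, 3.01-fold, adjusted p = 0.247) was the largest rise among the genes named here. A nearly identical gene lies beside *Lilrb4a*, and the array may read both. All 3 genes were below an intensity of 100 on average, where the array is less precise.

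The other receptors and secreted proteins of the same program moved less. *Trem2*, the lipid-sensing receptor whose loss keeps microglia from plaques, had 6.65, 6.86 and 6.91 in App HFD mice and 6.14, 6.29 and 6.56 in WT RD mice, a difference of 0.47 (standard error 0.12). The lowest App HFD mouse lay just above the highest WT RD mouse. *Clec7a*, the receptor dectin-1, had 4.72, 4.97 and 5.14 in App HFD mice and 4.40, 4.17 and 3.94 in WT RD mice, a difference of 0.77 (standard error 0.17) at levels near the floor of the array. The chemokine genes *Ccl3* (0.71) and *Ccl6* (0.53), the growth factor gene *Igf1* (0.25), the integrin gene *Itgax* (0.31) and *Gpnmb* (0.28), a glycoprotein of lysosome-rich macrophages, also rose. *Ctsd*, the main aspartic protease of lysosomes and the brightest of those that rose, had 10.64, 10.49 and 10.48 in App HFD mice and 10.20, 10.25 and 10.11 in WT RD mice, a difference of 0.35 (standard error 0.08). Of 25 measured genes of the list 11 rose (44.0%, beside 2.14% of all named genes) and none fell, and all 25 differences were above 0, with a median of 0.25 on the log2 scale, beside -0.006 over all named genes. The remaining 14 did not pass, among them *Tyrobp*, the signalling partner of *Trem2* (0.25), *Apoe* (0.07), *Axl* (0.04) and *Lpl* (0.01). Among the 9 members above an intensity of 100 the median was 0.07, and 1 of them rose. In the fit restricted to such clusters 2 of the 9 rose.

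**Figure D2:**
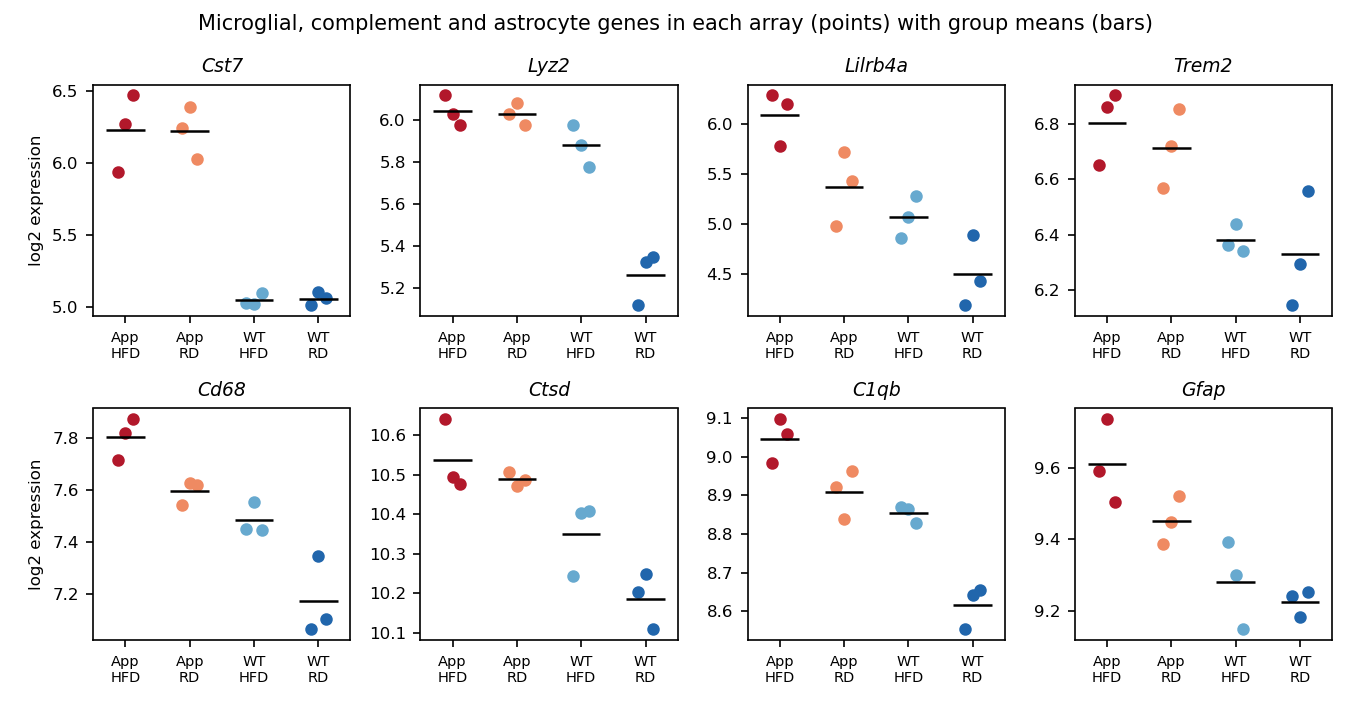
Log2 expression (vertical axes, each with its own range that does not start at 0) of 8 genes is shown for the 3 mice of each group, App HFD, App RD, WT HFD and WT RD, as points, with a bar at the group mean. In all 8 genes the 3 App HFD mice lie above the 3 WT RD mice, and App RD lies next to App HFD in *Cst7* and *Lyz2*. The WT HFD mean lies above that of WT RD in *Lyz2* but not in *Cst7*.

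Of the 15 phagosome and lysosome genes of microglia, 9 rose. *Cd68*, a glycoprotein of the lysosome membrane in phagocytes, had 7.71, 7.82 and 7.87 in App HFD mice and 7.06, 7.35 and 7.10 in WT RD mice. The groups did not overlap, and the difference was 0.63 (standard error 0.09, 1.55-fold, adjusted p = 0.247). *Ctss*, a cathepsin that cleaves the invariant chain of MHC class II, had 9.35, 9.63 and 9.51 in App HFD mice and 9.14, 9.20 and 9.18 in WT RD mice, a difference of 0.32 (standard error 0.11). *Ly86*, a partner of a Toll-like receptor homolog, differed by 0.38 and the lysosomal membrane gene *Laptm5* by 0.29. The protease genes *Ctsc* (0.32), *Ctsh* (0.29), *Lgmn* (0.23) and *Ctsz* (0.23) and the tetraspanin gene *Cd53* (0.24) rose as well. These 9 were 60.0% of the list, none fell, and all 15 differences were above 0, with a median of 0.23. Without WT RD mouse 1 the count was 5 of 15, and without WT RD mouse 3 or App HFD mouse 2 or 3 it was 6. The count was 7 without App HFD mouse 1 and 10 without WT RD mouse 2 or WT HFD mouse 1. For the plaque-associated list it stayed between 9 and 12 of 25 when any 1 of the 12 arrays was left out.

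The genes that mark resting microglia did not fall. Of 14 measured, 4 rose (28.6%), namely *Fcrls* (0.34), *Siglech* (0.33), *Olfml3* (0.31) and *Selplg* (0.27), and the median was 0.12. *Siglech*, a sialic acid receptor of microglia, had 6.17, 6.18 and 6.13 in App HFD mice and 5.84, 5.83 and 5.83 in WT RD mice, a gap far wider than the spread of either group. *P2ry12*, the purine receptor that guides microglial processes (0.13), *Cx3cr1* (0.12) and *Tmem119* (0.09) did not pass. A second, dimmer cluster of *Selplg* differed by -0.06. Of the receptors for antibody and microbes, *Fcer1g*, the signalling chain shared by Fc receptors, had 8.07, 8.09 and 8.08 in App HFD mice and 7.71, 7.85 and 7.65 in WT RD mice, a difference of 0.34 (standard error 0.07). *Fcgr2b* (0.31) and *Tlr13* (0.34) also rose, so that 20.0% of these 15 genes did, and the other 12 did not pass. None of 18 cytokine and inflammasome genes passed in either direction, with differences from -0.26 to 0.29.

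Complement genes were higher at the start of the classical route. *C1qb*, a chain of C1q, had 8.98, 9.10 and 9.06 in App HFD mice and 8.55, 8.64 and 8.66 in WT RD mice. The difference was 0.43 (standard error 0.07, 1.35-fold, adjusted p = 0.33), with a wide gap between the groups. *C1qa* had 7.56, 7.83 and 7.72 in App HFD mice and 7.21, 7.40 and 7.24 in WT RD mice, a difference of 0.42 (standard error 0.10). *C1qc* differed by 0.27 and the receptor gene *C3ar1* by 0.24. *C4b*, the substrate that C1 cleaves, had 7.67, 8.20 and 7.57 in App HFD mice and 7.20, 7.28 and 7.31 in WT RD mice, a difference of 0.55 (standard error 0.16), in which App HFD mouse 2 stood above the others. *Serping1*, the inhibitor of C1, had 6.71, 6.10 and 6.90 in App HFD mice and 5.78, 6.30 and 5.63 in WT RD mice. Its difference was 0.66 (standard error 0.22), and the groups overlapped. Of 16 measured genes 6 rose (37.5%) and none fell, with a median of 0.20.

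The promoters of 4 genes of these groups are shown, each 300 bases long from 250 before to 50 after the start site (RefSeq, GRCm38.p6, written 5′ to 3′ on the gene's strand), because the genes carry sequence elements known from their pathways. Of the 30 microglial and complement genes that rose, 24 had a promoter in the table used, and 13 of these (54.2%) held the letters GAGGAA on either strand (reverse complement TTCCTC), the core that ETS factors such as PU.1 of myeloid cells bind. The same letters stood in 28.3% of all 32851 promoters. The first share counts genes, picked by their p in these data, and the second counts promoters. No share was taken for the microglial genes that did not rise, and whether these shares differ was not tested. *Cd68* (chr11:69666121-69666420, minus strand) had them at both ends of the window and *C1qb* (chr4:136886151-136886450, minus strand) once, 30 bases before the start site. Capitals mark GAGGAA or TTCCTC in these 2.
Cd68: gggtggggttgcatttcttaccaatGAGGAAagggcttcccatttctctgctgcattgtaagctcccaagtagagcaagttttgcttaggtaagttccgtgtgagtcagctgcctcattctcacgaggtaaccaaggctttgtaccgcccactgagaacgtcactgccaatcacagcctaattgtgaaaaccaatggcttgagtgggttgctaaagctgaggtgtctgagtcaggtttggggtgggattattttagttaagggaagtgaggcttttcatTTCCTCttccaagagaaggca
C1qb: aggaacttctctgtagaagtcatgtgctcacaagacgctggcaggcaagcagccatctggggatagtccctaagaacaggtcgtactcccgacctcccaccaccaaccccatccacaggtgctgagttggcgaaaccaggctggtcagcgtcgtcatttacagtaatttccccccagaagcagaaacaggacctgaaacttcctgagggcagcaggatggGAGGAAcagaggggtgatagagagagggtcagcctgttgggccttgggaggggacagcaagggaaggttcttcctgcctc
In *Ctsd*, of the plaque-associated list (chr7:142387778-142388077, minus strand) capitals mark CACGTG, the E-box core of the element through which TFEB acts on lysosomal genes, which reads the same on both strands and stood in 7.15% of all promoters. Of the 15 phagosome and lysosome genes 14 had a promoter, and 3 (*Ctsl*, *Lamp1* and *Lgmn*) held CACGTG. In *Hmgcs1* (chr13:119690101-119690400, plus strand), whose enzyme makes the HMG-CoA from which cholesterol is built, capitals mark the sterol element TCACNCCAC (reverse complement GTGGNGTGA), found in 1.24% of all promoters and, of the 10 cholesterol synthesis genes with a promoter, in *Hmgcs1* alone.
Ctsd: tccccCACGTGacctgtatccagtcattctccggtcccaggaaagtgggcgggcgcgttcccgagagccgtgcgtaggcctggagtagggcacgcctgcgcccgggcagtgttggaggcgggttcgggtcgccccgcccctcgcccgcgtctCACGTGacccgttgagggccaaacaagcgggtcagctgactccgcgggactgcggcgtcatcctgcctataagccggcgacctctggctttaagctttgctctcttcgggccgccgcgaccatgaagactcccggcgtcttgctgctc
Hmgcs1: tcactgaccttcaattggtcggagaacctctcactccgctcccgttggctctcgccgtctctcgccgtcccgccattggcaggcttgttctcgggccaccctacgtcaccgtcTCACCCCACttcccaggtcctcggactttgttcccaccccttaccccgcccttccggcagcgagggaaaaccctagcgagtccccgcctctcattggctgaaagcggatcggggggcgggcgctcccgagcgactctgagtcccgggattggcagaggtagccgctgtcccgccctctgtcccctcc
Where these letters were not found says nothing of the factors, which bind other spellings and other places.

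Some of the astrocyte genes that react to injury rose as well, 7 of 17 (41.2%). *Gfap* had 9.59, 9.74 and 9.51 in App HFD mice and 9.24, 9.18 and 9.25 in WT RD mice, a difference of 0.38 (standard error 0.09, 1.31-fold, adjusted p = 0.664). *Vim*, another filament gene, had 8.88, 8.67 and 8.92 in App HFD mice and 8.50, 8.59 and 8.44 in WT RD mice (0.31, standard error 0.08). *Serpina3n*, a protease inhibitor of reactive astrocytes, had 9.86, 10.14 and 9.66 in App HFD mice and 9.50, 9.52 and 9.58 in WT RD mice (0.35, standard error 0.12), and close copies of it lie in the same gene cluster. *Lcn2*, the iron-carrier protein lipocalin 2, differed most. It had 6.58, 6.74 and 6.40 in App HFD mice, which lay close together, and 5.06, 6.14 and 4.58 in WT RD mice, which did not (1.31, standard error 0.45). *Cp* (0.50), *Timp1* (0.40) and *Osmr* (0.29) also rose. None of the 17 fell, and their median was 0.24. Leaving out any 1 of the 12 arrays moved the counts of this list, of complement and of resting microglia by no more than 1.5 times. None of 13 genes of the resting astrocyte passed, such as the water channel gene *Aqp4* (0.11), and their median was 0.03.

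The genes of antigen presentation and of the interferon response moved less evenly. *B2m*, the light chain of MHC class I, had 10.73, 11.15 and 10.94 in App HFD mice and 10.49, 10.54 and 10.45 in WT RD mice (0.45, standard error 0.11), and *H2-K1*, one of its heavy chains, differed by 0.48. These 2 were 14.3% of the list, and the other 12 of 14 genes did not pass. Of 16 interferon-stimulated genes 5 rose (31.2%). *Xaf1* had 5.79, 6.01 and 5.83 in App HFD mice and 5.62, 5.48 and 5.37 in WT RD mice (0.39, standard error 0.10), with *Usp18* (0.41), *Ifitm3* (0.40), *Rtp4* (0.26) and *Irf7* (0.21), the factor that drives type I interferon genes. The groups overlapped in *Usp18*, *Ifitm3* and *Rtp4*. The interferon count was 1 or 2 of 16 without WT RD mouse 1 or 3 or App HFD mouse 2 or 3, and 1 of 16 when only the 6 arrays of the 2 groups were fitted. The count for antigen presentation was 4 without WT RD mouse 2 and 1 without WT RD mouse 3 or App HFD mouse 2.

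**Figure D3:**
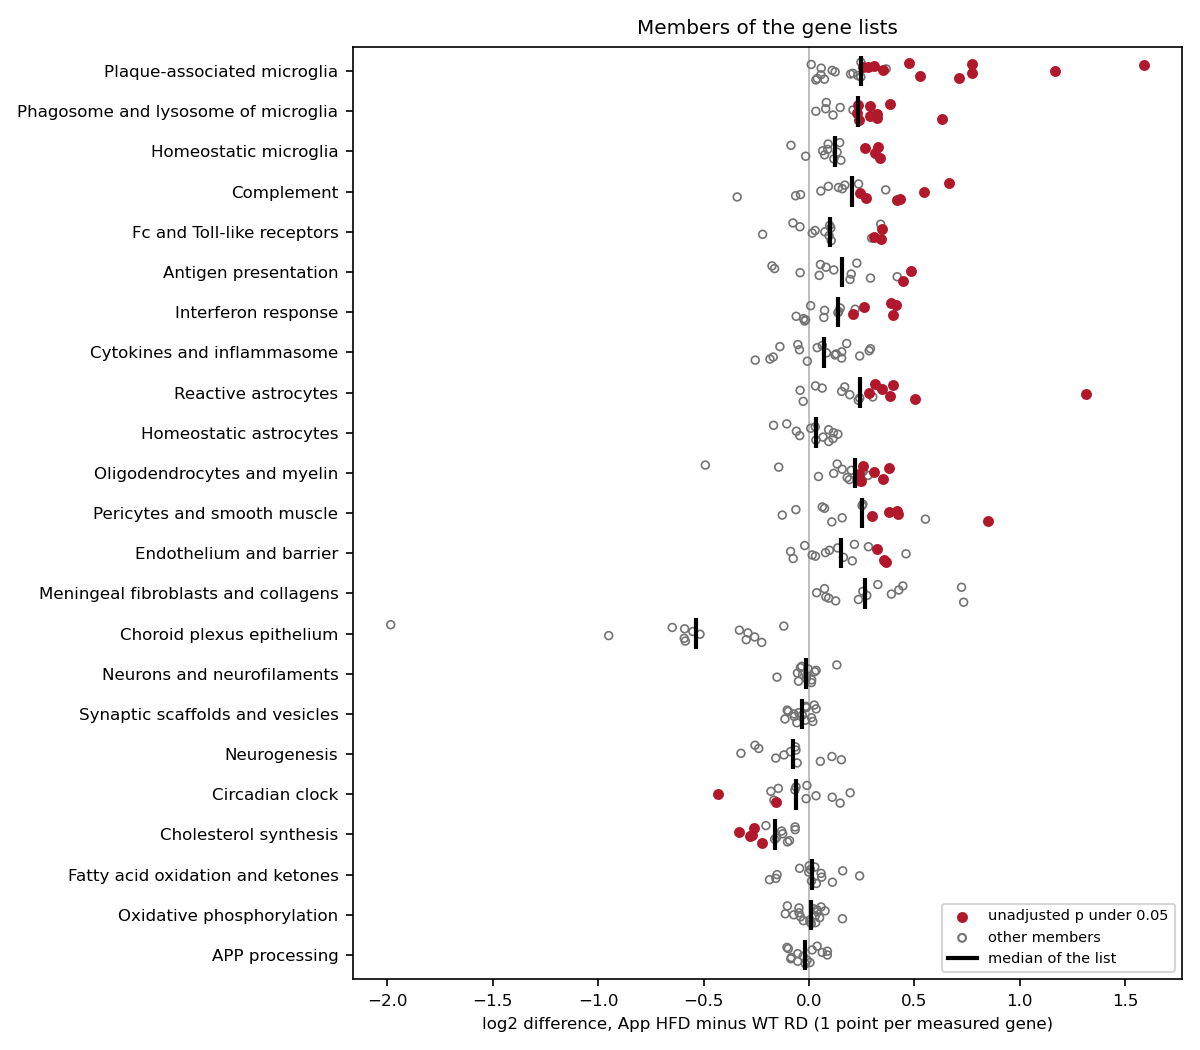
Each point is a measured gene of a list, placed by its log2 difference, App HFD minus WT RD (horizontal axis), with lists down the page, filled points for an unadjusted p under 0.05 and a black bar at the list's median. The plaque-associated list and the phagosome and lysosome list lie wholly to the right of 0. Resting microglia, complement and reactive astrocytes lie mostly to its right, with 2, 3 and 2 genes below 0. Cholesterol synthesis and choroid plexus lie wholly to the left of 0, and neuronal, synaptic and respiratory chain genes are packed around 0.

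Cholesterol synthesis was the list with the most falls. All 14 measured genes had differences below 0, from -0.33 to -0.07, with a median of -0.16, and 5 of them fell (35.7%, beside 2.17% of all named genes). *Insig1*, which holds the SREBP complex in the endoplasmic reticulum and is itself switched on by SREBP2, had 8.61, 8.51 and 8.63 in App HFD mice and 8.88, 8.97 and 8.72 in WT RD mice, a difference of -0.28 (standard error 0.09, 0.82-fold, adjusted p = 0.812). Every App HFD mouse lay below every WT RD mouse. *Mvd*, which makes isopentenyl diphosphate, had 5.91, 5.96 and 6.19 in App HFD mice and 6.37, 6.42 and 6.27 in WT RD mice (-0.33, standard error 0.10). *Cyp51*, the demethylase of lanosterol, had 7.15, 7.17 and 7.34 in App HFD mice and 7.46, 7.51 and 7.37 in WT RD mice (-0.22, standard error 0.08). In these genes App HFD mouse 3 was closest to the WT RD mice. *Sqle*, which oxidises squalene, had 7.61, 7.64 and 7.91 in App HFD mice and 8.04, 8.08 and 7.82 in WT RD mice (-0.26, standard error 0.10), so that the groups overlapped. *Lss*, the enzyme after it, differed by -0.27 with overlapping groups.

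*Hmgcs1* had 9.76, 9.74 and 9.83 in App HFD mice and 9.94, 9.99 and 9.86 in WT RD mice, a difference of -0.16 (standard error 0.07) that did not pass. Neither did *Fdps* (-0.16), *Srebf2*, the gene of SREBP2 itself (-0.07), and 6 others. The number that fell was 2 of 14 without WT RD mouse 2, App HFD mouse 1 or App HFD mouse 2, and 2 of 14 when only the 6 arrays of the 2 groups were fitted. Among 19 genes of fatty acid synthesis and lipid carriage, the desaturase genes *Scd1* (-0.27) and *Fads2* (-0.16) fell. *Fads2* had 9.76, 9.76 and 9.73 in App HFD mice and 9.93, 9.93 and 9.89 in WT RD mice, with very little spread in either group. *Apod*, a lipocalin that carries lipids and is made by glia, rose, with 9.92, 9.65 and 9.80 in App HFD mice and 9.30, 9.43 and 9.27 in WT RD mice (0.46, standard error 0.10). None of 15 genes of fatty acid oxidation and ketone use passed, and their median was 0.01.

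**Figure D4:**
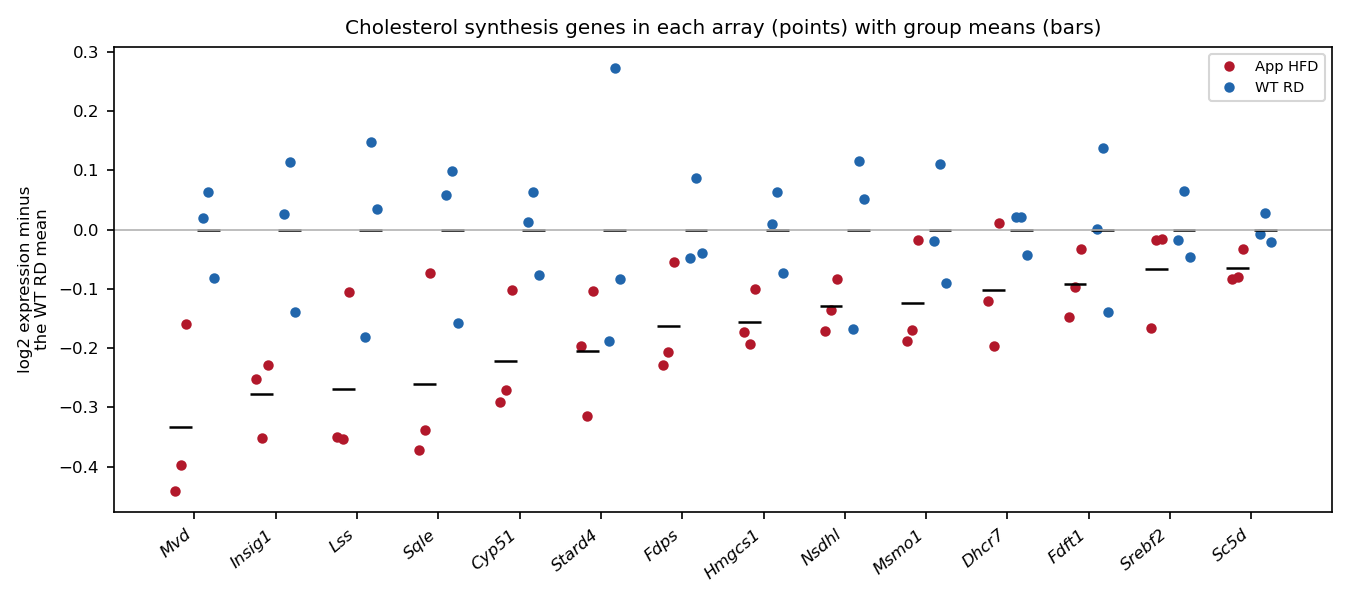
For each of the 14 measured cholesterol synthesis genes (horizontal axis) the log2 expression of the 3 App HFD mice and the 3 WT RD mice is shown as points after subtraction of the gene's WT RD mean (vertical axis, log2), with bars at the group means. All 14 App HFD means are below 0, and the groups do not overlap in *Mvd*, *Insig1*, *Cyp51*, *Fdps*, *Hmgcs1* and *Sc5d*.

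Myelin and oligodendrocyte genes were slightly higher. *Mobp*, a protein of compact myelin, had 10.98, 10.93 and 10.88 in App HFD mice and 10.70, 10.63 and 10.53 in WT RD mice, a difference of 0.31 (standard error 0.09). *Olig2*, the transcription factor of the lineage, had 8.57, 8.46 and 8.45 in App HFD mice and 8.17, 8.12 and 8.06 in WT RD mice (0.38, standard error 0.13). *Ermn* (0.35), *Sox10* (0.26), *Cldn11* (0.25) and *Mal* (0.24) made up the 6 of 18 (33.3%) that rose, and the median was 0.22. *Opalin* (-0.14) and *Trh* (-0.49) lay below 0 without passing. The count rested on single arrays. It was 1 of 18 without App HFD mouse 1, 2 without WT RD mouse 2 or 3, 3 without App HFD mouse 2 and 10 without App RD mouse 1, whose mean over the list, 7.76, was the lowest of the 12 arrays. None of 8 genes of oligodendrocyte precursors passed.

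Genes of vessel walls moved with a few mice. *Acta2*, the actin of smooth muscle, had 8.12, 7.36 and 8.42 in App HFD mice and 6.88, 7.49 and 6.97 in WT RD mice. Its difference was 0.85 (standard error 0.30), but App HFD mouse 2 lay below WT RD mouse 2, the other way round from the remaining mice. *Myl9*, a light chain of smooth muscle myosin, did not overlap, with 7.11, 7.09 and 7.21 in App HFD mice and 6.53, 6.87 and 6.75 in WT RD mice (0.42, standard error 0.14). *Kcnj8*, a potassium channel of pericytes (0.42), *Myh11* (0.38) and *Des* (0.30) also rose, and 5 of 14 genes of the list (35.7%) did so. The count was 2 or 3 without WT RD mouse 1 or 3 or App HFD mouse 1 or 3, and 3 when only the 6 arrays of the 2 groups were fitted. Of 16 endothelial genes the transporter genes *Abcb1a* (0.37) and *Slc2a1* (0.32) and the tight junction gene *Cldn5* (0.35) rose (18.8%). A dimmer cluster of *Slc2a1* differed by 0.06. The count was 0 without WT RD mouse 1 or 3 or App HFD mouse 3, 1 without App HFD mouse 1 and 5 without WT RD mouse 2.

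Markers of choroid plexus and meninges varied between mice of a group. *Ttr*, transthyretin, a carrier of thyroid hormone that the choroid plexus makes in large amounts, had 13.15, 10.26 and 8.67 in App HFD mice and 12.86, 13.003 and 12.17 in WT RD mice. App HFD mouse 1 lay above all WT RD mice and the other App HFD mice far below, so that a difference of -1.98 had a standard error of 1.45 and did not pass. All 14 choroid plexus genes had differences below 0 and none passed. Their mean level was 6.67, 5.42 and 5.12 in App HFD mice and 6.43, 6.70 and 5.77 in WT RD mice. The 14 genes of meningeal fibroblasts had a mean level of 6.79, 6.32 and 7.01 in App HFD mice and 6.25, 6.80 and 6.15 in WT RD mice, all 14 differences were above 0, and none passed, though 4 did so without WT RD mouse 2, 5 without App HFD mouse 2 and 1 without App HFD mouse 1. App HFD mouse 2 was the lowest of its group and WT RD mouse 2 the highest of its group in this mean. The same order was seen in *Acta2*, *Serping1*, *Cp*, *Vim*, *Myl9* and *Cldn5*, among others. The part of meninges or vessels in those genes was not tested. The 8 genes of macrophages at the brain's borders, a list added after the values were seen, had a mean level of 4.74, 4.59 and 4.77 in App HFD mice and 4.49, 4.59 and 4.41 in WT RD mice, and 1 of them, *Cd163*, rose (0.38). Their part in the microglial genes was not tested. Blood leukocyte genes were near the floor, with means of 3.89, 3.83 and 3.82 in App HFD mice and 3.79, 3.85 and 3.90 in WT RD mice, though *Ly6c2* rose (0.40).

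**Figure D5:**
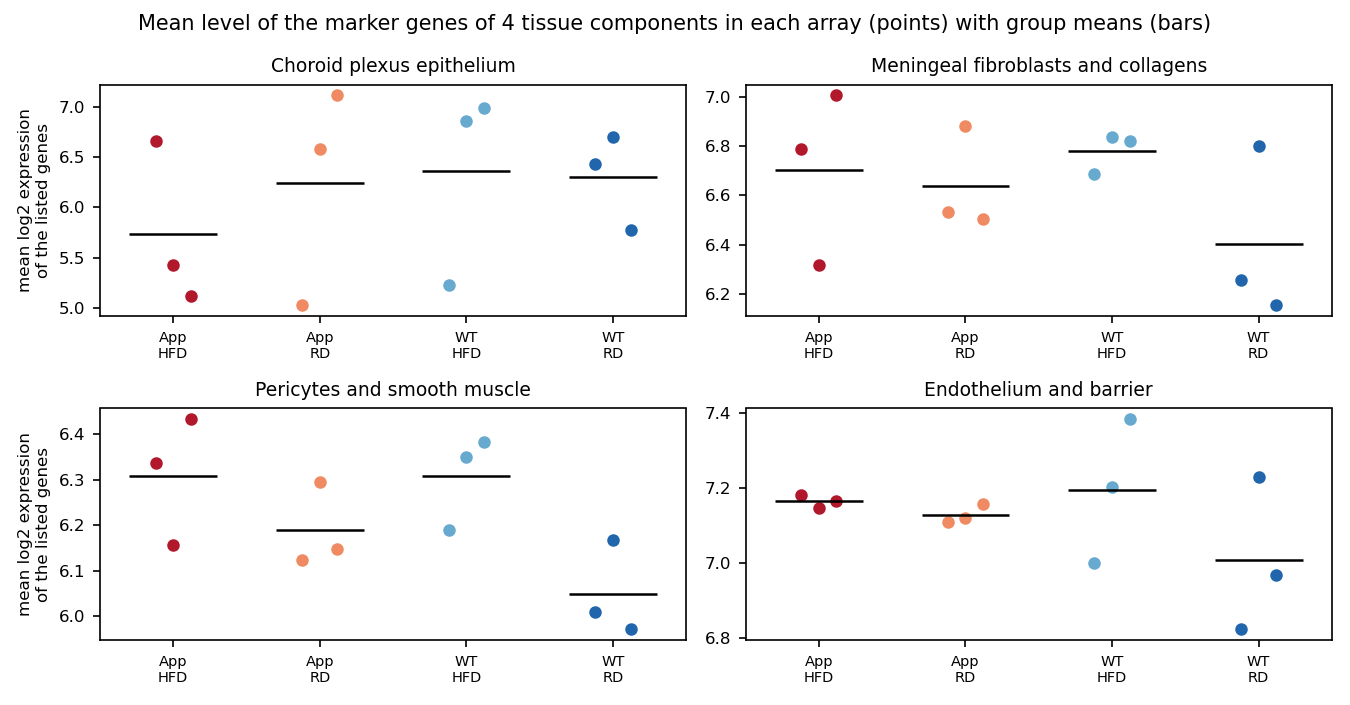
The mean log2 expression of the listed marker genes of choroid plexus epithelium, meningeal fibroblasts, pericytes and smooth muscle, and endothelium (vertical axes, each with its own range) is shown for each of the 3 mice of the groups App HFD, App RD, WT HFD and WT RD, with bars at the group means. The choroid plexus level spans 5.12 to 6.67 within App HFD mice, and App HFD mouse 2 and WT RD mouse 2 stand apart from their groups in the meningeal panel.

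No gene of 5 neuronal lists passed, which were 14 neuronal and neurofilament genes, 15 synaptic genes, 10 receptor subunits of glutamate and GABA, 14 interneuron genes and 12 neurogenesis genes, with medians between -0.08 and -0.01. Of these 65 genes 45 had a difference below 0, and all App HFD mice lay below all WT RD mice in 8 (12.3%, beside 5.64% of the named genes) and above them in 0. The peptide gene *Sst* had 11.94, 11.98 and 12.02 in App HFD mice and 12.00, 12.12 and 12.12 in WT RD mice. *Dcx*, a marker of newborn neurons, had 5.66, 5.66 and 5.65 in App HFD mice and 5.76, 5.67 and 5.70 in WT RD mice. Markers of dentate granule cells (10 genes) and CA pyramidal cells (12 genes) had mean levels of 7.28 to 7.65 in App HFD mice and 7.42 to 7.59 in WT RD mice, so the labelled tissue was present in all 6, and genes of neighbouring brain regions averaged 5.98 to 6.12 in App HFD mice and 5.97 to 6.22 in WT RD mice.

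*App* itself had 11.61, 11.60 and 11.59 in App HFD mice and 11.62, 11.68 and 11.66 in WT RD mice, a difference of -0.05 (standard error 0.06). A knock-in of point mutations leaves the gene's level in place, so *App* does not check the genotype labels. None of the 15 genes of APP processing passed. The differences were 0.06 for *Bace1*, the β secretase, 0.09 for *Bace2*, -0.02 and 0.00 for the α secretase genes *Adam10* and *Adam17*, and between -0.10 and 0.01 for *Psen2*, *Ncstn*, *Aph1a*, *Aph1b* and *Psenen* of the γ secretase complex. None of 19 genes beside *App* on its chromosome passed. Of 16 genes of Aβ clearance 1 rose (6.25%), *Abcb1a*. Of 24 orthologs of Alzheimer risk genes *Trem2* rose and *Plcg2* fell (4.17% each way, beside 2.14% and 2.17% of all named genes). Neither averaged an intensity of 100. *Plcg2*, a phospholipase that acts downstream of *Trem2*, had 4.75, 4.92 and 5.08 in App HFD mice and 5.09, 5.13 and 5.15 in WT RD mice (-0.21, standard error 0.09).

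Single genes outside these groups also fell. *Tma7*, a small protein tied to the translation machinery, had 9.02, 9.07 and 9.02 in App HFD mice and 9.47, 9.44 and 9.51 in WT RD mice, with the groups well apart (-0.44, standard error 0.07, 0.74-fold, adjusted p = 0.318). Its dimmer cluster differed by -0.21. *Dbp*, a transcription factor whose level follows the circadian clock, had 8.51, 8.41 and 8.40 in App HFD mice and 8.84, 8.77 and 9.01 in WT RD mice (-0.43, standard error 0.08), and *Bhlhe41*, a repressor in the same clock, had 7.38, 7.42 and 7.43 in App HFD mice and 7.53, 7.60 and 7.57 in WT RD mice (-0.16, standard error 0.07). The other 11 of 13 clock genes did not pass. The count of 2 was 1 without WT RD mouse 2 or 3, WT HFD mouse 1, App RD mouse 2 or App HFD mouse 2 or 3, after centring of the arrays, and with only the 6 arrays of the 2 groups. The hour of sampling was not known here. *Nr4a3*, a nuclear receptor induced by neuronal activity, had 7.79, 7.80 and 8.14 in App HFD mice and 8.34, 8.20 and 8.35 in WT RD mice (-0.39, standard error 0.10), and *Nab2*, a corepressor of the EGR factors, differed by -0.26. Of 14 immediate early genes only *Egr2* fell (-0.48), with overlapping groups. *Ccnd2*, a cyclin of the start of the cell cycle, had 8.55, 8.56 and 8.58 in App HFD mice and 8.88, 8.87 and 8.86 in WT RD mice (-0.30, standard error 0.07), nearly without spread.

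*Slc36a1*, an amino acid transporter of the lysosome, differed by -0.38 and the clathrin light chain gene *Cltb* by -0.26. *Gtf2e2* of the general transcription factor TFIIE differed by -0.27, the insulin receptor substrate gene *Irs1* by -0.22 and *Hspa1b* by -0.30. *Irs1* was the only 1 of 15 insulin and IGF signalling genes that passed (6.67%, beside 2.17% of all named genes), and their median was -0.04. *Hspa1b* was the only 1 of 16 stress chaperone genes that passed (6.25%), and their median was 0.05. *Hspa1b* has a nearly identical copy, *Hspa1a*, which differed by -0.23 and did not pass. The zinc finger genes *Klf16* (-0.26) and *Zfp358* (-0.28) and the membrane protein gene *Tmem39b* (-0.27) fell too. *Bri3* fell in its brighter cluster (-0.35) and not in its dimmer one (0.01), and *Ndufa8* only in its dimmer one (-0.29, against -0.08). Among rises outside the lists, *Ptma*, the gene of prothymosin α, had 9.62, 9.69 and 9.82 in App HFD mice and 9.14, 9.30 and 9.15 in WT RD mice (0.51, standard error 0.09, adjusted p = 0.422), and it has many retrocopies in the genome that the probes may read. *Fam107a*, a stress-responsive gene bright in astrocytes, had 10.63, 10.60 and 10.35 in App HFD mice and 9.98, 10.09 and 10.05 in WT RD mice (0.49, standard error 0.13), while its dimmer cluster differed by 0.09. *Arhgef10* (0.47), *Tppp3* (0.43) and *Sez6l2* (0.43) rose too. A dimmer cluster of *Arhgef10* differed by 0.20, and the dimmer clusters of *Sez6l2* by 0.42 and 0.13. Of 12 glucocorticoid-responsive genes 3 rose (25.0%), *Plin4* (0.90), *Cdkn1a* (0.81) and *Sult1a1* (0.56). Their number was 1 without WT RD mouse 1 or App HFD mouse 2. *Cdkn1a*, an inhibitor of the cell cycle, had 7.44, 8.36 and 8.03 in App HFD mice and 6.85, 7.60 and 6.95 in WT RD mice, so its groups overlapped.

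The changes of genotype alone (App RD against WT RD) and diet alone (WT HFD against WT RD) are given beside the joint change, and all of them share the WT RD mice. For *Cst7* the log2 differences from WT RD mice were 1.17 in App HFD mice, 1.16 in App RD mice and -0.01 in WT HFD mice. For *Clec7a* they were 0.77 in App HFD mice, 0.70 in App RD mice and -0.005 in WT HFD mice. *Trem2* (0.47, 0.38 and 0.05), *Ptma* (0.51, 0.56 and 0.15), *Tma7* (-0.44, -0.37 and -0.01) and *Dbp* (-0.43, -0.41 and -0.09) had these values in App HFD, App RD and WT HFD mice. *Lyz2* differed from WT RD mice by 0.78 in App HFD mice, 0.76 in App RD mice and 0.61 in WT HFD mice, *C1qb* by 0.43, 0.29 and 0.24, *Cd68* by 0.63, 0.42 and 0.31, and *Lilrb4a* by 1.59, 0.87 and 0.57 in the same groups. *Mvd* differed by -0.33 in App HFD mice, -0.23 in App RD mice and -0.28 in WT HFD mice. *C4b* differed by 0.55 in App HFD mice, 0.21 in App RD mice and 0.13 in WT HFD mice, *Gfap* by 0.38, 0.23 and 0.06, *Serpina3n* by 0.35, 0.02 and 0.09, *Olig2* by 0.38, 0.03 and 0.08, *Mobp* by 0.31, 0.08 and 0.04, and *Insig1* by -0.28, -0.13 and -0.09. *Scd1* differed from WT RD mice by -0.27 in App HFD mice, -0.03 in App RD mice and -0.25 in WT HFD mice.

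For plaque-associated microglia the median difference from WT RD mice was 0.25 in App HFD mice, 0.24 in App RD mice and 0.004 in WT HFD mice, and for phagosome and lysosome genes it was 0.23, 0.18 and 0.09 in these groups. It was 0.20, 0.11 and 0.15 for complement, 0.24, 0.13 and 0.09 for reactive astrocytes, 0.22, 0.04 and 0.09 for myelin and -0.16, -0.07 and -0.07 for cholesterol synthesis, again in App HFD, App RD and WT HFD mice. Whether the effect of diet differed between the genotypes was tested by the interaction term, and among the genes named here the lowest adjusted p was 0.814.

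A threshold after that of the study, an unadjusted p under 0.05 with more than a 1.5-fold change and a minimum intensity of 100, was met by 24 clusters (0.058%), 23 higher and 1 lower in App HFD mice. The minimum was read here as one that each of the 4 group means had to exceed, and the clusters held 22 distinct sets of values, since some clusters had the same value on every array. Of these, 5 had a single gene symbol, namely *Cd68*, *Cdkn1a*, *Acta2*, the membrane transporter gene *Slc6a20a* and a small nucleolar RNA gene, and the other 19 had none or several. The groups overlapped in *Cdkn1a*, *Acta2* and *Slc6a20a*, so *Cd68* was the only protein-coding gene of the 5 in which all App HFD mice lay above all WT RD mice. *Slc6a20a* is outside the rule for named genes and was named after its values were seen. Which clusters pass after adjustment depended on the fit. When only the 9858 clusters above an intensity of 100 were fitted, 8 passed an adjusted p of 0.05, among them *Cd68*, *C1qb* and *Ptma*, which were higher, and *Tma7*, which was lower in App HFD mice. With a spread that follows intensity and is robust to outliers, 6 passed, among them *Cst7*, *Lyz2*, *Cd68* and *C1qb*, higher, and *Tma7*, lower.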

How the data were processed

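RNA from the hippocampus of 12 mice was read on Affymetrix Mouse Gene ST arrays, with 1 mouse on each. The authors imported the scans into the Transcriptome Analysis Console and deposited gene-level log2 values for 41345 transcript clusters. The sources used here do not state the summarisation or normalization, and detection calls were not used here. Nothing further was done to the values, and 0 columns were left unmapped. Groups and replicate numbers came from the sample labels. No source says that the mice came from separate litters, so p-values measure the spread between these mice.

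Clusters were named through the platform annotation, with 23521 clusters paired with 1 symbol, 1820 with several and 16004 with none. A gene with several clusters was read from the brightest one, by its 12-array mean. All 12 arrays entered a limma 3.58.1 model with the 4 groups (lmFit and eBayes, R 4.3.3, 8 residual and 2.32 prior degrees of freedom), and App HFD minus WT RD was read from it with Benjamini-Hochberg adjustment over all clusters. No exact permutation test of a single value was run, since 3 against 3 mice allow no p under 0.1. The fit was tested on simulated data. Of 44 gene lists and 1 added later, members are counted and medians given, with no list test, and of 696 distinct listed genes 635 had a cluster.

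Named were the 15 largest rises and falls above an intensity of 100 that had separate groups and an unadjusted p under 0.05, up to 6 members of each list with the smallest p and every member with a p under 0.05, *App*, the secretase genes, *Ttr*, *C1qa*, *C1qb*, *Cd68* and *Gfap*. Predicted genes and small RNAs were counted only, and not every gene under the rule is printed. The comparison, the lists and the rule were chosen with earlier results of these data known. Promoters came from RefSeq, and 3 motifs were searched on both strands. Alternatives were the 6 arrays alone, an intensity trend with robust spread, only clusters above an intensity of 100, quantile normalization, median centring, a replicate block, the mean of all clusters of a gene, an intensity minimum in the 2 groups only and leaving out each array.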

Additional observations from a re-analysis of the deposited data

How the results depend on the processing

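The 101 genes named with an unadjusted p under 0.05, chosen on these same values, kept their direction under the 8 alternatives that can move the difference (quantile normalization, centring and leaving out 1 of the 6 arrays compared); the other 10 leave it as it is. The 0 clusters past an adjusted p became 6 with an intensity trend and robust spread, 8 among clusters above an intensity of 100 and 1 after quantile normalization, and ran from 0 to 2 when an array was left out, with the 2 (1 of them *Cst7*) without App HFD mouse 1. The cause was not tested, except that among those above 100 fewer clusters are adjusted for and the pooled spread comes from these clusters alone. The count at an unadjusted p was 658 (432 higher, 226 lower) when the clusters above 100 were fitted alone. The same clusters gave 236 higher and 100 lower in the fit of all. Each cluster's difference and own spread are the same in both fits, and only the spread pooled over the fitted clusters differs. The number of clusters whose groups do not overlap was 1204 among those above 100. Over all clusters this last count ran from 4360 to 8953 without an array, since 3 mice are separated from 2 by chance more often than from 3. The replicate numbers do not pair the mice, with correlations of 0.14, -0.07 and -0.04 between same-numbered App HFD and WT RD mice. A replicate block gave 0 clusters past an adjusted p and 2384 past an unadjusted one. With it 3 of 18 myelin and 0 of 16 endothelial genes were higher. It moved no other count by over 1.5 times among the 15 lists that were counted under the alternatives. The counts of the remaining lists were not taken with it. Among members above 100 the median was 0.073 for plaque-associated microglia (9 genes). It was 0.425 for complement (4 genes) and 0.447 for antigen presentation (1 gene). The other medians of these 15 lists moved by less than the spread between mice. For choroid plexus that spread was 0.734, and the median went from -0.534 to -1.267 among the 2 genes above 100. With the trend and robust spread 5 of 12 glucocorticoid-responsive and 1 of 14 meningeal genes rose. The number of arrays and the low signal of dim clusters limit what can be called.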

Other observations

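Several gene groups that the description above leaves aside showed little. None of 19 genes of oxidative phosphorylation passed an unadjusted p of 0.05, with a median log2 difference of 0.01 between App HFD and WT RD mice, and none of 10 genes for the repair of oxidised guanine did. Of 20 antioxidant genes 1 rose, *Msrb1*, a methionine sulfoxide reductase, with 6.92, 7.02 and 6.97 in App HFD mice and 6.67, 6.82 and 6.82 in WT RD mice (0.20). Of 17 cytosolic ribosome genes 1 rose, *Rplp0* (0.29), whose dimmer cluster differed by -0.12. Of 17 genes of leukocyte signalling *Ptprc*, the phosphatase CD45 (0.37), and *Lcp1*, an actin-bundling protein of white cells (0.31), rose. In this list 1 gene fell, 6 differences were below 0 and the median was 0.06. *Lcp1* had 6.19, 6.07 and 6.22 in App HFD mice and 5.84, 5.92 and 5.80 in WT RD mice.

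The cluster with the lowest adjusted p, which carries no gene symbol, had log2 levels of 3.14, 2.19 and 2.89 in App HFD mice and 4.67, 4.90 and 4.73 in WT RD mice, a difference of -2.03. In App RD mice it had 3.999, 3.94 and 4.04 and in WT HFD mice 3.81, 3.41 and 3.60. It lies near the floor of the array, and it was picked after its values were seen.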
